A study of Mus musculus with 4 samples.

Results

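The genes described here are 10 transcripts that mark mature neutrophils or encode calprotectin: S100a8, S100a9, Retnlg, Cxcr2, Csf3r, Ly6g, Mmp25, Stfa2l1, Il1r2 and Trem1. They were taken by gene symbol from a table of read counts for 56748 genes in lungs that carried metastases of triple-negative breast cancer, and all 10 were present. They had been picked with their counts in these same samples in view, so their values are given as a description and not tested. Cells of the mouse breast cancer line 4T1-FLuc, which carries firefly luciferase, were injected into the tail vein of female BALB/cJ mice 7 weeks old. The treated group, ADC/cmLumiOpto, received a CD276 antibody carrying mertansine (DM1), together with cmLumiOpto, a gene therapy in which an exosome-wrapped AAV vector delivers a light-gated channel to the inner mitochondrial membrane of cancer cells, with expression driven by the cfos promoter, and the substrate ViviRen supplies the light. The control group received saline, written PBS in the treatment labels. The design text of the series gives 3 weeks of treatment. The labels give 16 mg/kg for the antibody, the unexplained abbreviation Olap and tumour cells taken from the lung. The study's methods instead give 8 mg/kg, no such abbreviation and dissociated lung tissue. The methods also state a group size of 4. Analysed here were 2 samples of each group. Beyond sample numbers the labels do not say which mouse each sample came from, so the spread between the 2 samples of a group may be partly technical.

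Neutrophils are short-lived granulocytes that mature in the bone marrow under the cytokine G-CSF and enter tissues along gradients of CXC chemokines. The 4T1 tumour is known for releasing G-CSF and for the marked neutrophil expansion seen in mice that carry it. S100a8 and S100a9 encode the subunits of calprotectin, a calcium- and zinc-binding heterodimer that makes up much of the cytosolic protein of the neutrophil and signals through the receptors TLR4 and RAGE once released. Retnlg encodes a resistin-like secreted protein, and Stfa2l1 a stefin A protein that inhibits cysteine proteases. Cxcr2 and Csf3r encode the receptors for CXC chemokines and for G-CSF, Ly6g the surface antigen used to identify mouse neutrophils, and Mmp25 a membrane-anchored metalloproteinase of leukocytes. Il1r2 encodes the decoy receptor that binds interleukin-1 without signalling, and Trem1 an activating receptor of myeloid cells that amplifies inflammatory signals. In bulk RNA from a tissue, fewer cells of a type and less RNA per cell cannot be told apart.

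The high values of these genes came from 1 library. In the sample ADC/cmLumiOpto replicate 2 every one of the 10 was at its highest, whereas ADC/cmLumiOpto replicate 1 lay among or close to the saline samples for most of them. The libraries held between 15263375 and 19675436 counts, with TMM scaling factors from 0.973 to 1.04, and 3 counts, taken as the floor, corresponded to between 0.146 and 0.202 CPM, the unit used here for counts in proportion to the TMM-adjusted library total. All 10 genes were among the 15320 that passed the filter on low counts. The keratin transcript Krt8, which both the tumour and lung epithelium express, was at 1141 and 1543 CPM in saline and 1131 and 1117 CPM after treatment, and does not separate tumour from lung. The surfactant transcript Sftpc, which marks lung tissue, was at 1017 and 174 CPM in saline and 4321 and 3426 CPM after treatment.

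S100a8 (ENSMUSG00000056054, chr3:90576285-90577342, plus strand, positions as listed with the counts, on mm39 according to the submitters' processing notes) had 7262 counts in saline replicate 1 and 2526 in saline replicate 2, then 7452 in ADC/cmLumiOpto replicate 1 and 63353 in replicate 2, the order in which values are given throughout. On the CPM scale these were 454 and 170 against 422 and 3089. The first treated sample fell between the saline samples, and the second was 6.81 times the highest of the other 3. S100a9 (ENSMUSG00000056071, chr3:90599939-90603028, minus strand) had 8074 and 3121 counts in saline and 9912 and 78223 counts after treatment, or 505 and 210 against 562 and 3815 CPM. Here both treated samples were above both saline samples, although the first exceeded the higher saline sample only slightly and the second was 6.79 times the first. The group means were 312 ± 201 (SD, n = 2) and 1756 ± 1886 CPM for S100a8, and 358 ± 208 and 2188 ± 2300 CPM for S100a9, so that the SD of the treated group exceeded its mean for both genes. The fitted log2 fold change, ADC/cmLumiOpto over saline, was 2.49 ± 0.90 (SE) for S100a8 and 2.61 ± 0.86 for S100a9.

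The subunits of calprotectin moved in step from library to library. The ratio of S100a8 to S100a9 counts was 0.899 and 0.809 in saline and 0.752 and 0.810 after treatment, while the level of either gene spanned more than an order of magnitude. Together they took 0.0953% of all counts in saline replicate 1 (Clopper-Pearson 95% interval 0.0938 to 0.0969%), 0.0370% in saline replicate 2 (0.0360 to 0.0380%) and 0.0972% in ADC/cmLumiOpto replicate 1 (0.0958 to 0.0987%). In ADC/cmLumiOpto replicate 2 the share was 0.720% (0.716 to 0.723%). These intervals cover counting error only. By CPM, S100a9 ranked 6 and S100a8 ranked 10 among all genes of that library. In the other 3 libraries they ranked between 232 and 1216.

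The promoters of this pair are shown with that of Il1r2, which followed the others least closely. They mark the ends of the range, among the 10, of ADC/cmLumiOpto replicate 2 over the highest other sample. That ratio was 6.81 for S100a8, 6.79 for S100a9 and 1.53 for Il1r2. Each is the 250 bases upstream of the RefSeq transcription start, read along the gene on GRCm38.p6, which is another build than that of the count table. Capitals mark matches, searched on both strands, to the letters of 3 motifs. The letters GAGGAAG stood for PU.1, an Ets factor of myeloid cells. The letters TTGCNNAA stood for the C/EBP family, which drives granulocyte genes. The letters TATAAA stood for the TATA box of core promoters.
S100a8, chr3:90668821-90669070, plus strand: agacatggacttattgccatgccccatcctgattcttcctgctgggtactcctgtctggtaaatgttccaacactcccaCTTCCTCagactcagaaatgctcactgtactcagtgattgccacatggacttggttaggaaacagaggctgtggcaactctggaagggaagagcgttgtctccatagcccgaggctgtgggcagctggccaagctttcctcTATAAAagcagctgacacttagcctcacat
S100a9, chr3:90695722-90695971, minus strand: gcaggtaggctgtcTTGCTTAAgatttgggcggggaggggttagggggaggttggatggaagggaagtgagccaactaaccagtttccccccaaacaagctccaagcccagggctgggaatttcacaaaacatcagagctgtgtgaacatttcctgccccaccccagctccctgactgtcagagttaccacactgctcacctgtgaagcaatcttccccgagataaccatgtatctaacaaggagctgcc
Il1r2, chr1:40085843-40086092, plus strand: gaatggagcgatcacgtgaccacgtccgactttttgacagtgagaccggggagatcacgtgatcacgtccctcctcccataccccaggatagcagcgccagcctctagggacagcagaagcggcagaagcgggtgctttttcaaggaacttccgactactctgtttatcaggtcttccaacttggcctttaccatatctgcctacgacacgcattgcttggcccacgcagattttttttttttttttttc
The S100a8 window held 1 PU.1 match and 1 TATA match, the latter 30 bases before the start, the S100a9 window held 1 C/EBP match, and the Il1r2 window held none of these letters. Over the 10 genes, which have 11 RefSeq promoters because Ly6g has 2, the C/EBP letters were found for 3 genes (Retnlg, S100a9 and Ly6g), the PU.1 letters for 4 (S100a8, Csf3r, Ly6g and Mmp25) and the TATA letters for 2 (S100a8 and Ly6g). Among 32851 windows of the same length, 9.56% held the C/EBP letters, 10.6% those of PU.1 and 12.4% the TATA letters. The match is one of letters and does not show that a factor was bound.

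Of the secreted proteins, Retnlg (ENSMUSG00000022651, chr16:48692984-48694859, plus strand) had 1309 and 555 counts in saline and 1205 and 10798 counts after treatment. Its CPM values of 81.8 and 37.4 against 68.3 and 527 put the first treated sample between the saline samples and the second 6.43 times above the highest of the rest. Stfa2l1 (ENSMUSG00000059657, chr16:35977181-35982323, plus strand) had 792 and 268 counts in saline and 264 and 6462 counts after treatment, or 49.5 and 18.1 against 14.96 and 315 CPM. For this stefin the first treated sample was the lowest of the 4 and the second the highest, a difference of 21.1 times between samples of the same group, the widest among the 10 genes. The fitted log2 fold changes were 2.32 ± 0.87 (SE) for Retnlg and 2.29 ± 1.19 for Stfa2l1. Stfa2l1 is uncertain in itself, because 24.6% of its 50-base stretches also occur in transcripts of Stfa2 or Gm49652, and the way the authors assigned such reads is not given in the sources used here.

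The receptors for G-CSF and for CXC chemokines were likewise highest in ADC/cmLumiOpto replicate 2. Csf3r (ENSMUSG00000028859, chr4:125918343-125938233, plus strand) had 733 and 367 counts in saline and 888 and 4795 counts after treatment, which is 45.8 and 24.7 against 50.3 and 234 CPM. Cxcr2 (ENSMUSG00000026180, chr1:74193148-74200405, plus strand) had 530 and 290 counts in saline and 533 and 3367 counts after treatment, which is 33.1 and 19.5 against 30.2 and 164 CPM. Both treated samples lay above both saline samples for Csf3r, but not for Cxcr2, whose first treated sample was between them. The last sample was 4.65 times the highest of the others for Csf3r and 4.96 times for Cxcr2, with fitted log2 fold changes of 2.01 ± 0.68 (SE) and 1.88 ± 0.72. The ratio of Csf3r to Cxcr2 CPM stayed between 1.27 and 1.67 in the 4 libraries. Short repeats in their transcripts were shared with many other genes, over 10.7% of the 50-base stretches of Csf3r and 6.68% of those of Cxcr2.

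The surface markers were the least abundant. Ly6g (ENSMUSG00000022582, chr15:75027089-75030975, plus strand) had 87 and 21 counts in saline and 136 and 497 counts after treatment, or 5.44 and 1.42 against 7.71 and 24.2 CPM. Ly6g was the gene for which the first treated sample stood furthest above the saline mean, at 2.25 times, and the second was 3.14 times the first. Mmp25 (ENSMUSG00000023903, chr17:23847285-23864251, minus strand) had 123 and 43 counts in saline and 111 and 582 counts after treatment, or 7.69 and 2.90 against 6.29 and 28.4 CPM. For Mmp25 the first treated sample again lay between the saline samples, and the second was 3.69 times the highest of the others. The fitted log2 fold changes were 2.21 ± 0.74 (SE) and 1.71 ± 0.75. With 21 to 497 counts, Ly6g carries the largest counting error of the group.

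Il1r2 and Trem1 stood apart from the other 8 genes. Il1r2 (ENSMUSG00000026073, chr1:40113239-40164391, plus strand) had 675 and 1357 counts in saline and 449 and 2876 counts after treatment, or 42.2 and 91.5 against 25.4 and 140 CPM. Trem1 (ENSMUSG00000042265, chr17:48539796-48553952, plus strand) had 356 and 437 counts in saline and 428 and 1175 counts after treatment, or 22.3 and 29.5 against 24.3 and 57.3 CPM. In both, saline replicate 2 was above saline replicate 1, the reverse of the order in the other 8 genes, where saline replicate 1 was between 1.70 and 3.84 times saline replicate 2. The last sample was still the highest, at 1.53 times the next for Il1r2 and 1.95 times for Trem1. The fitted log2 fold changes were 0.31 ± 0.73 (SE) for Il1r2 and 0.66 ± 0.40 for Trem1, the smallest of the 10. Genes that overlap Il1r2 or Trem1 could not be separated from them without strand, but had at most 23 counts each over the 4 samples. Relative to Cxcr2, the CPM of the decoy receptor was 1.27 and 4.68 in saline and 0.842 and 0.854 after treatment, and that of Trem1 was 0.672 and 1.51 in saline and 0.803 and 0.349 after treatment.

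**Figure D1:**
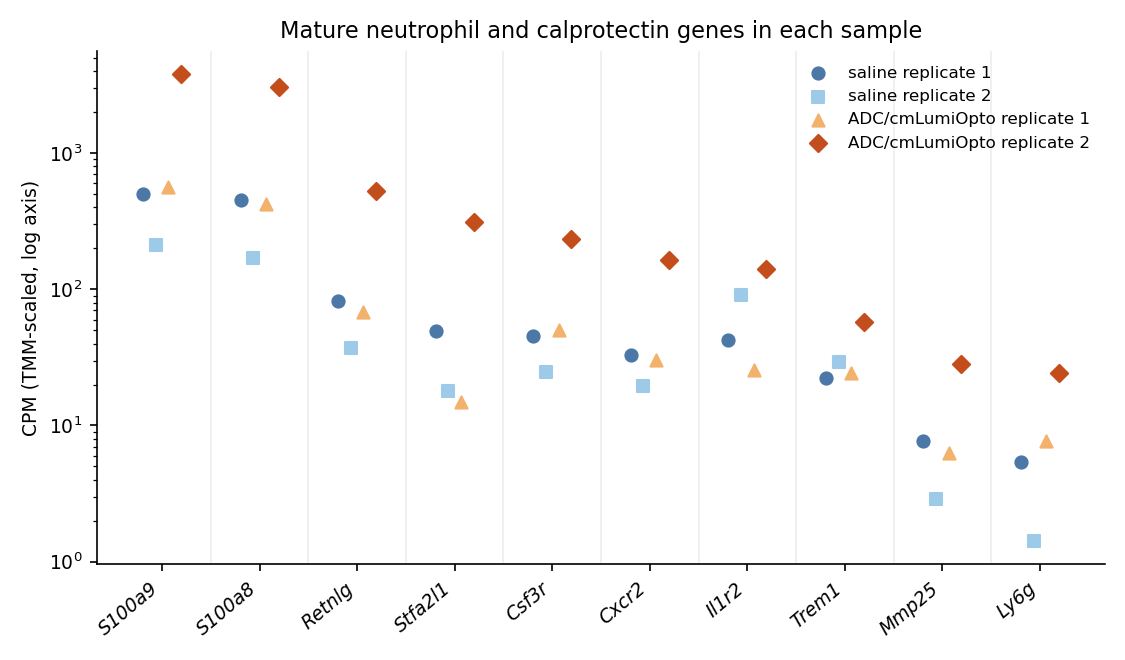
Level of each of the 10 genes (x axis) in CPM after TMM scaling (y axis, log scale) in the 2 saline and 2 ADC/cmLumiOpto samples, with 1 symbol per sample and genes ordered by ADC/cmLumiOpto replicate 2. That sample is the highest for every gene, from 24.2 CPM for Ly6g to 3815 CPM for S100a9, and 8 of the 10 genes are there at least 2 times the highest of the other 3 samples.

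Counted over the group, both treated samples were above both saline samples for 3 of the 10 genes (S100a9, Csf3r and Ly6g), an order found in 28.1% of all tested genes. ADC/cmLumiOpto replicate 1 fell within the range of the 2 saline samples for 5 genes (S100a8, Retnlg, Cxcr2, Mmp25 and Trem1), as did 18.3% of all tested genes. For Stfa2l1 and Il1r2 it was below both. ADC/cmLumiOpto replicate 2 was the highest sample for 10 of 10 genes, against 23% of all tested genes. It was at least 2 times the highest of the other 3 samples for 8 genes, against 2.28% of all tested genes, and at least 4 times for 6 genes, against 0.398%. Since the genes were picked on these counts, the shares describe them and nothing is read from them. The median of that ratio was 4.80 over the 10 genes and 0.817 over all tested genes.

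**Figure D2:**
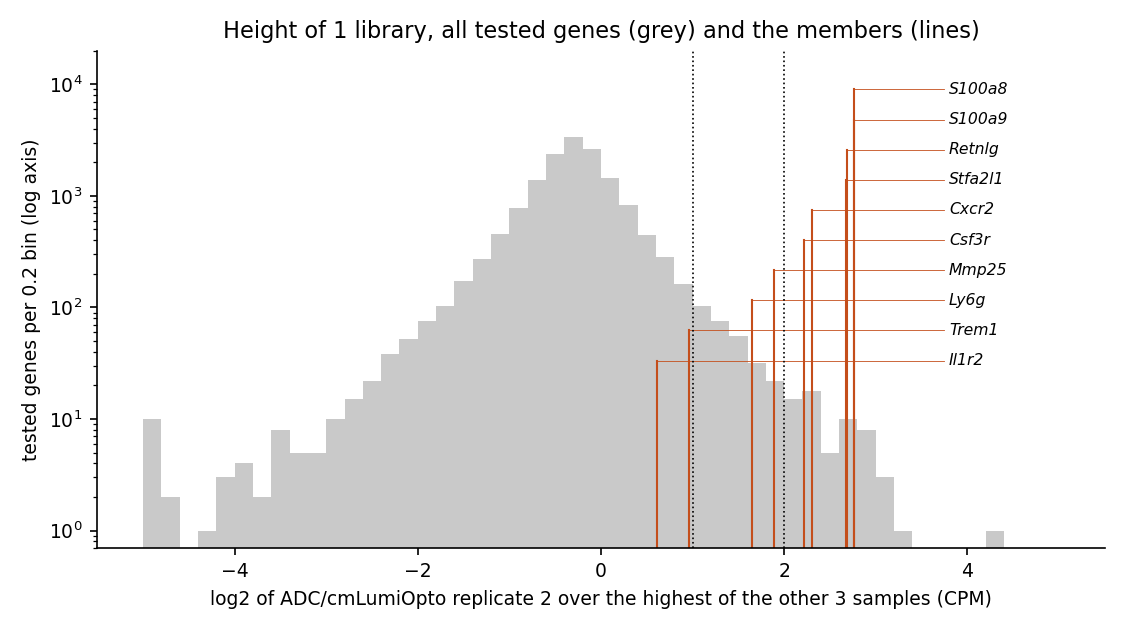
Number of tested genes (y axis, log scale) by the log2 ratio of ADC/cmLumiOpto replicate 2 to the highest of the other 3 samples in CPM (x axis), with the 10 genes as labelled lines, dotted lines at ratios of 2 and 4, and genes beyond the left end of the axis drawn in the first bin. Il1r2 and Trem1 lie below a ratio of 2 at 1.53 and 1.95, and S100a8 lies furthest to the right at 6.81.

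Adjusted for transcript length, the order of abundance was the same at its top in every library. In CPM per kilobase, S100a9 led with 967 and 403 in saline and 1076 and 7307 after treatment, followed by S100a8 with 654 and 245 in saline and 609 and 4452 after treatment. Next came Retnlg, at 138 and 63.1 in saline and 115 and 888 after treatment. Stfa2l1 followed in saline replicate 1 and in both treated samples, at 118, 35.7 and 752, but in saline replicate 2 Il1r2 (47.9) was above Stfa2l1 (43.1), a small gap for single libraries. Mmp25 was the lowest in all 4, between 0.547 and 5.35 CPM per kilobase. S100a9 was above S100a8, and Csf3r above Cxcr2, in all 4 libraries, although between libraries the saline values of each pair overlapped. Trem1 had no fixed place beside Cxcr2, lying below it in saline replicate 1 and above it in saline replicate 2. Calprotectin made up 76.9 and 62.8% of the summed CPM of the 10 genes in saline, and 81.2 and 82.3% after treatment. The sum itself was 1247 and 606 CPM in saline and 1212 and 8394 CPM after treatment. Divided by the CPM of Ptprc, the general leukocyte marker CD45, the sum was 17.8 and 12.7 in saline, 11.5 in ADC/cmLumiOpto replicate 1 and 48.2 in ADC/cmLumiOpto replicate 2.

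Leaving out single libraries showed how far the fold changes rested on that sample. The median log2 fold change of the 10 genes was 2.11, where the median of all tested genes was 0.028. Without ADC/cmLumiOpto replicate 2 it was 0.22, with 7 genes above 0 and 3 below. Without that sample, the log2 fold change was 0.65 for S100a9, 0.43 for S100a8, 0.19 for Retnlg and 0.19 for Cxcr2. It was 0.51 for Csf3r, 0.24 for Mmp25 and 1.16 for Ly6g, the only one of the 10 to stay above 1. The 3 that turned negative were Stfa2l1 (-1.18), Il1r2 (-1.40) and Trem1 (-0.10). Without ADC/cmLumiOpto replicate 1 the median was 2.77, without saline replicate 1 it was 2.77, and without saline replicate 2 it was 1.59. In these fits the single sample left in a group was assumed to vary like the samples of the other group.

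**Figure D3:**
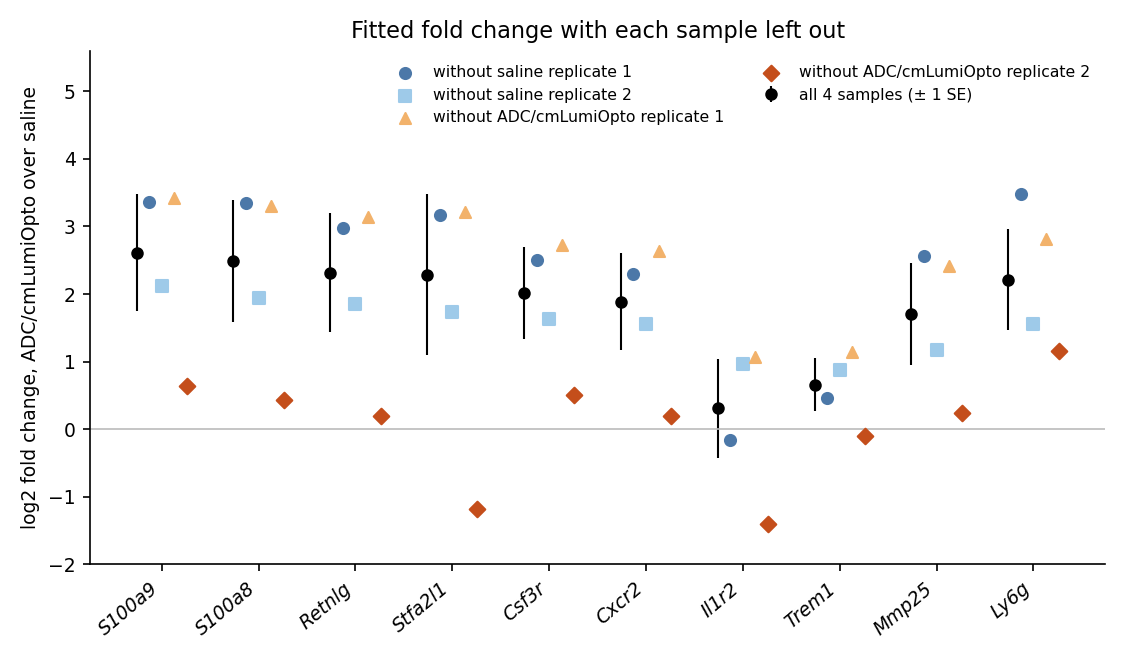
Fitted log2 fold change, ADC/cmLumiOpto over saline (y axis), of each of the 10 genes (x axis) with all 4 samples (black circles, bars of 1 SE) and with each sample left out (coloured symbols). Leaving out ADC/cmLumiOpto replicate 2 brings 9 of the 10 genes to 0.65 or below, and Ly6g to 1.16.

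Across the whole table, which includes the members, the edgeR quasi-likelihood test with Benjamini-Hochberg adjustment called 0 of 15320 genes (0%) between ADC/cmLumiOpto and saline, with a lowest adjusted p of 0.116, while 3553 genes (23.2%) had an unadjusted p under 0.05. The edgeR exact test called 1170 genes (7.64%) and DESeq2 called 1332 of the 13834 genes to which it gave an adjusted p (9.63%). An exact permutation test of 2 samples against 2 cannot give a two-sided p below 0.333.

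Other genes of the neutrophil programme were taken from lists by role, and the quasi-likelihood test called none of them. The granule proteins, 14 genes for the antimicrobial and proteolytic contents of neutrophil granules, all had a log2 fold change above 0, against 52% of all tested genes, with a median of 1.11. Of these, 5 had an unadjusted p under 0.05 and were higher after treatment, against 11% of all tested genes. The exact test called 2, against 7.64% of all tested genes, and DESeq2 called 0, against 9.63% of those it gave an adjusted p. In 9 of the 14, ADC/cmLumiOpto replicate 2 was at least 2 times the highest other sample, against 2.28% of all tested genes. In 4 this library was at least 4 times the highest other sample, against 0.398%. Without that library 7 of the 14 were above 0 and the median was 0.03, and without ADC/cmLumiOpto replicate 1 it was 1.71. Camp, which encodes the antimicrobial peptide cathelicidin, had 243 and 101 counts in saline and 513 and 1875 after treatment (log2 fold change 2.45 ± 0.60 SE, adjusted p = 0.123 by the edgeR quasi-likelihood test). Pglyrp1, which encodes a peptidoglycan-binding protein of the granules that is also a ligand of TREM-1, had 485 and 194 counts in saline and 593 and 3854 after treatment (2.35 ± 0.79 SE, adjusted p = 0.159 by the same edgeR test). Both treated samples of Camp were above both saline samples, as were those of Pglyrp1, whose first treated sample was close to saline replicate 1.

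Within the granule list, Mpo and Elane were low in every library. They belong to the primary granules, whose genes are transcribed at the promyelocyte stage in the marrow. Prtn3, of the same granules, was higher, with 171 and 84 counts in saline and 124 and 278 after treatment. Mpo had 69 and 61 counts in saline and 62 and 198 after treatment, and Elane had 19 and 14 in saline and 21 and 59 after treatment. The treated samples differed by 2.75 times for Mpo, 2.42 times for Elane, 1.93 times for Prtn3 and 1.72 times for Ctsg, another primary granule gene. Among genes of the later granules the difference was 1.37 times for Lcn2, which encodes lipocalin 2, 3.83 times for Ltf and 7.26 times for Ngp. It was 9.61 times for Olfm4, 10.6 times for Mmp8 and 11.1 times for Cd177. In the rest of the list it was 3.14 times for Camp, 3.44 times for Mmp9 and 5.59 times for Pglyrp1. Cybb went the other way, with the second treated sample at 0.913 times the first. Ltf, which encodes lactoferrin, had 1076 and 279 counts in saline and 1168 and 5196 after treatment, and Ngp, which encodes neutrophilic granule protein, had 2251 and 845 in saline and 1501 and 12673 after treatment. Camp and Pglyrp1 aside, the genes of this paragraph were named after their values had been seen. They were named for their granule class, or as the rest of the list.

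Of 22 other genes of mature neutrophils (formyl peptide and C5a receptors, C-type lectins and others), 20 were above 0, with a median log2 fold change of 1.44. An unadjusted p under 0.05 was reached by 13, all higher after treatment, against 11% of all tested genes. The exact test called 7, against 7.64% of all tested genes, and DESeq2 called 6, against 9.63% of those it gave an adjusted p. Both treated samples were above both saline samples for 13, against 28.1% of all tested genes. Without ADC/cmLumiOpto replicate 2, 17 of the 22 were still above 0, with a median of 0.47. Asprv1, which encodes a retroviral-like aspartic protease, had 467 and 194 counts in saline and 290 and 4703 after treatment (log2 fold change 2.54 ± 1.06 SE, adjusted p = 0.218 by the edgeR quasi-likelihood test). Wfdc21, which encodes a secreted WAP-domain protein, had 248 and 180 counts in saline and 343 and 2431 after treatment (2.32 ± 0.75 SE, adjusted p = 0.151 by the same edgeR test). The first treated sample was between the saline samples for Asprv1, whose log2 fold change was -0.37 without ADC/cmLumiOpto replicate 2, and only slightly above them for Wfdc21. The genes below 0 were Padi4 and Fcgr4, named after their values had been seen: Padi4 had 5961 and 8077 counts in saline and 5921 and 6878 after treatment, and Fcgr4 had 2013 and 1521 in saline and 1741 and 1501 after treatment.

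The relatives of Stfa2l1 in the stefin A cluster, which encode further cysteine protease inhibitors, had the same single high sample. Of 10 listed genes 2 had no count and 5 were tested. In all 5 ADC/cmLumiOpto replicate 2 was at least 4 times the highest other sample, against 0.398% of all tested genes. The summed level of the cluster was 237 and 76.6 CPM in saline and 70.7 and 1587 CPM after treatment. The ratio between the treated samples was 22.5. Cstdc4 had 838 and 340 counts in saline and 369 and 9046 after treatment, and Stfa3 had 511 and 100 in saline and 167 and 4825 after treatment, with log2 fold changes of 2.62 ± 1.19 (SE) and 2.66 ± 1.33. In CPM the first treated sample lay between the saline samples for Stfa3 and just below both for Cstdc4, and without the second the log2 fold changes were -1.04 and -0.85. The exact test, DESeq2 and the quasi-likelihood test called 0 of the 5, and 0 had an unadjusted p under 0.05. Near-identical copies in this cluster make each single count uncertain. The resistin family gave another picture: of Retnlg's 3 relatives only Retnla, a product of alternatively activated macrophages and lung epithelium, was tested, with 166 and 7 counts in saline and 1465 and 551 after treatment, highest in the first treated sample and not in the second.

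**Figure D4:**
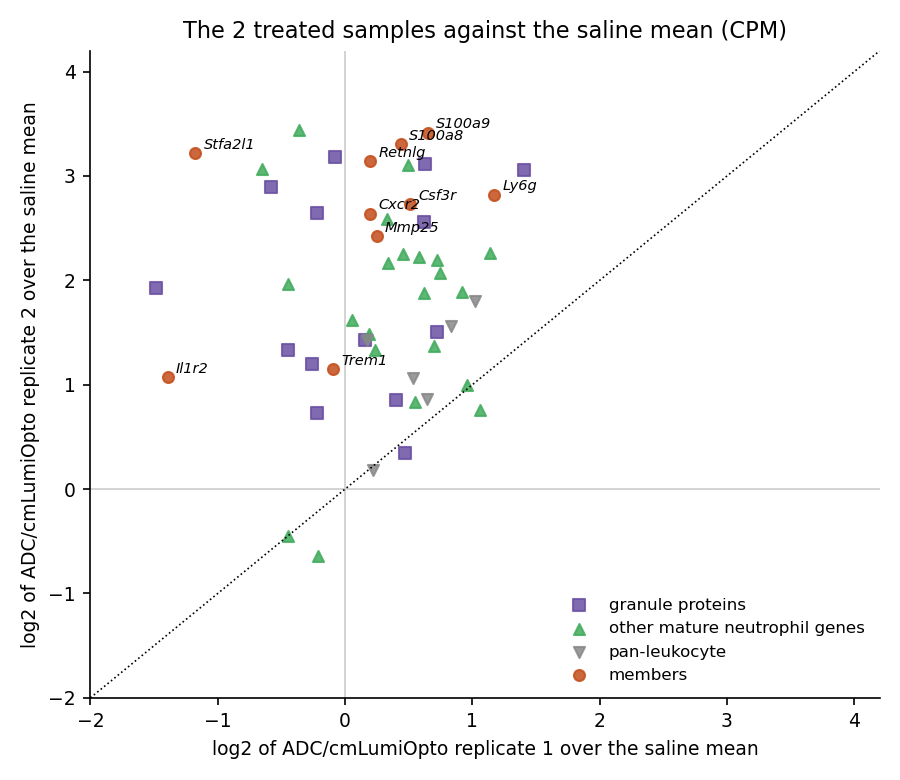
Log2 ratio to the saline mean in CPM of ADC/cmLumiOpto replicate 1 (x axis) and of ADC/cmLumiOpto replicate 2 (y axis), with 1 symbol per gene for the 10 described genes (labelled), the granule proteins, the other mature neutrophil genes and the pan-leukocyte genes, and a dotted line where both samples are equal. The 10 genes lie above the line, and Stfa2l1 and Il1r2 are the leftmost of them, where ADC/cmLumiOpto replicate 1 was 0.443 and 0.381 times the saline mean.

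Signals that make and call neutrophils were measured in the same libraries. Of 12 tested chemoattractants and growth factors, 7 were above 0 with a median log2 fold change of 0.15. The median was 0.01 without ADC/cmLumiOpto replicate 2 and 1.14 without saline replicate 2. Among the 12, 4 had an unadjusted p under 0.05 and were higher after treatment, against 11% of all tested genes. ADC/cmLumiOpto replicate 2 was at least 2 times the highest other sample for 1 of them, against 2.28% of all tested genes. That gene was Alox5ap, part of leukotriene synthesis, named after its values had been seen. Csf3, which encodes G-CSF, had 409 and 414 counts in saline and 412 and 481 after treatment, or 25.6 and 27.9 against 23.3 and 23.5 CPM, while its receptor was high in 1 sample. Csf3 was also named for its role after its values had been seen. Ppbp, a platelet chemokine, had 12 and 6 counts in saline and 43 and 63 after treatment (2.23 ± 0.55 SE). Cxcl15, a chemokine of lung epithelium, had 759 and 132 counts in saline and 2469 and 2529 after treatment (2.22 ± 0.67 SE). For both, the treated samples were close to each other and above both saline samples.

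Among 8 receptors of calprotectin, 6 were above 0 with a median of 0.29. Tlr4, named for its role after its values had been seen, had 686 and 730 counts in saline and 845 and 874 after treatment. In proportion to library size these were 42.9 and 49.2 against 47.9 and 42.6 CPM, with a log2 fold change of -0.025. Ager, which encodes RAGE and is abundant in alveolar type 1 cells, had 2171 and 698 counts in saline and 7448 and 7763 after treatment (2.13 ± 0.46 SE, adjusted p = 0.116 by the edgeR quasi-likelihood test). Cd36, a scavenger receptor, had 741 and 185 counts in saline and 1550 and 3294 after treatment (2.08 ± 0.60 SE). In both, the treated samples were above the saline samples. Ager was highest in the same samples as the surfactant genes, whose summed level was 1437 and 288 CPM in saline and 5375 and 4511 CPM after treatment, and the part of lung tissue content in that change was not tested.

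Of 9 factors of granulopoiesis, 6 were above 0, with a median of 0.48 (0.05 without ADC/cmLumiOpto replicate 2 and 0.74 without saline replicate 1). Cebpe, which encodes the C/EBP factor of terminal granulocyte differentiation, had 9 and 13 counts in saline and 12 and 130 after treatment (2.29 ± 1.01 SE, and -0.08 without the second treated sample), the same single high sample as in the members. Gfi1, a repressor active in granulocyte progenitors, had 4 and 2 counts in saline and 18 and 13 after treatment (2.05 ± 0.75 SE), counts too low to rank the samples within a group. In the interleukin-1 system, 6 of 8 genes were above 0 with a median of 0.18 (0.04 without saline replicate 1 and 0.40 without saline replicate 2). Il1b, the cytokine that the decoy receptor Il1r2 binds, had 389 and 197 counts in saline and 719 and 815 after treatment (1.10 ± 0.29 SE), and Il1rn, the receptor antagonist, had 269 and 167 in saline and 451 and 384 after treatment (0.66 ± 0.29 SE). The treated samples were alike for both, in contrast to the 5.51-fold difference between them for Il1r2.

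Of 10 partners and relatives of TREM-1, 9 were above 0 with a median of 1.03. The exact test called 4, against 7.64% of all tested genes, and DESeq2 called 3, against 9.63% of those it gave an adjusted p. Without ADC/cmLumiOpto replicate 2 there were 6 above 0 with a median of 0.43. Besides Pglyrp1, the furthest from 0 was Trem3, a related myeloid receptor, with 50 and 36 counts in saline and 106 and 331 after treatment (1.99 ± 0.52 SE). Among 12 genes of neutrophil trafficking, 9 were above 0 with a median of 0.45, and without ADC/cmLumiOpto replicate 2 there were 6 above 0 with a median of -0.01. An unadjusted p under 0.05 was reached by 4 in the higher direction, against 11% of all tested genes. In the lower direction it was reached by 3, against 12.2% of all tested genes. Cxcr1, the relative of Cxcr2, was close to the floor with 7 and 0 counts in saline and 20 and 35 after treatment. Sele, which encodes the endothelial adhesion molecule E-selectin, had 61 and 30 counts in saline and 18 and 15 after treatment (-1.74 ± 0.55 SE). Genes linked to suppression of T cells by neutrophils were divided, with 4 of 10 above 0 and a median of -0.06, which was between -0.09 and 0.04 with single samples left out. Prok2, a secreted chemotactic protein, had 67 and 23 counts in saline and 73 and 650 after treatment (2.64 ± 0.94 SE), and Wfdc17 had 914 and 727 in saline and 1067 and 6532 after treatment (1.84 ± 0.67 SE). In these 2 genes the second treated sample alone was high. In the Ly6 family all 6 tested relatives of Ly6g were above 0 with a median of 0.92, but 5 of 6 with a median of 0.26 without saline replicate 2 and 4 of 6 with a median of 0.27 without ADC/cmLumiOpto replicate 1. Among them, Ly6c1, an antigen of endothelium, had 996 and 533 counts in saline and 1721 and 4237 after treatment (1.63 ± 0.41 SE), and Ly6c2, an antigen of monocytes, had 37 and 8 in saline and 87 and 32 after treatment (1.17 ± 0.82 SE, and 0.12 without ADC/cmLumiOpto replicate 1).

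Markers of other cells that the tissue could hold were compared by their summed CPM. The 6 pan-leukocyte genes summed to 1058 and 655 CPM in saline and 1228 and 1759 CPM after treatment, so that the treated samples differed by 1.43 times, where the members differed by 6.93 times. The 5 monocyte genes summed to 588 and 454 CPM in saline and 526 and 431 after treatment, and the 8 macrophage genes to 1613 and 1500 in saline and 2024 and 1507 after treatment. For neither was the second treated sample the highest. Singly, 3 of the 5 monocyte genes and 5 of the 8 macrophage genes had a log2 fold change above 0, against 52% of all tested genes. The medians were 0.65 and 0.34. The monocyte median was 2.13 without saline replicate 1 and -0.07 without saline replicate 2. Farthest from 0 were Ccr2 (1.62) and F13a1 (-1.31) for monocytes, and Mrc1 (-0.98) and C1qb (0.51) for macrophages. The 5 T cell genes summed to 37.1 and 14.2 CPM in saline and 74.8 and 33.6 CPM after treatment, highest in the first treated sample. The 5 erythroid genes, which follow the blood in a tissue, summed to 1110 and 352 CPM in saline and 1871 and 2075 CPM after treatment, a ratio of 1.11 between the treated samples. The 5 simple epithelial genes, which the tumour and the lung both express, stayed between 2450 and 2978 CPM.

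The remaining marker lists were sparse. Of 5 eosinophil genes 1 was tested (Siglecf, with 30 and 5 counts in saline and 43 and 32 after treatment), and the defining gene Epx had 1 count in all. Of 4 mast cell or basophil genes 1 was tested (Mcpt8, with 7 to 18 counts), and of 3 NK cell genes 1 (Ncr1, with 1 to 22 counts). B cell genes summed to between 1.28 and 6.58 CPM. Of 6 squamous epithelial genes 2 were tested, and Krt5 had no count in 3 of the 4 samples. The summed levels of the pan-leukocyte, erythroid and surfactant genes were higher in both treated samples than in either saline sample. That order held singly for 4 of 6, 4 of 5 and 4 of 4 genes, against 28.1% of all tested genes. The part of these lists in the members' values was not tested. The part of the blood content of the lung was likewise not tested.

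**Figure D5:**
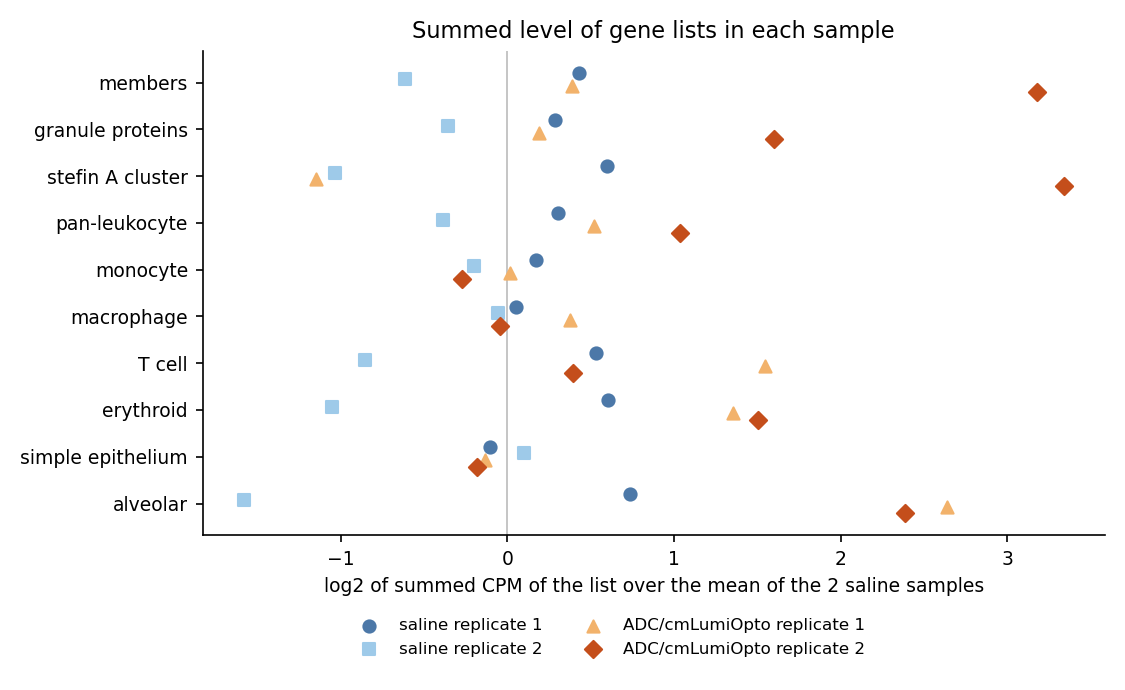
Summed CPM of the 10 described genes and of 9 gene lists (y axis) as the log2 ratio to the mean of the 2 saline samples (x axis), with 1 symbol per sample. ADC/cmLumiOpto replicate 2 stands apart for the 10 genes, the granule proteins and the stefin A cluster, whereas for erythroid and alveolar genes both treated samples lie together.

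The genes whose profile over the 4 samples lay closest to the median profile of the members were Ifitm1, Pi16, Slc40a1, Rhov, Il36g, Pglyrp1, Klra17 and S1pr4, with distances from 0.21 to 0.43 (Euclidean, on log2 CPM centred for each gene over 4 samples) among 13778 genes with at least 10 counts in every sample. Ifitm1, an interferon-induced membrane protein gene that also stood in the list of mature neutrophil genes, had 939 and 491 counts in saline and 1018 and 5669 after treatment. Slc40a1, which encodes the iron exporter ferroportin, had 229 and 115 in saline and 248 and 1196 after treatment, and S1pr4, which encodes a sphingosine-1-phosphate receptor of leukocytes, had 86 and 26 in saline and 91 and 450 after treatment. Of the members, Csf3r was nearest to the common profile at 0.16, and Il1r2 (2.28), Trem1 (1.69) and Stfa2l1 (1.55) were the farthest. With 4 samples, a likeness of profiles rests mainly on the single high one.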

How the data were processed

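Bulk mRNA from 2 saline and 2 ADC/cmLumiOpto samples of lung with 4T1 metastases was sequenced on an Illumina HiSeq platform. The authors deposited raw counts, whole numbers of reads per gene without normalization. The study's methods name HISAT2 and GRCm38, the submitters' processing notes name mm39, and 0 of the 10 members had the start that the GENCODE annotation of GRCm38 gives; the counting program and strandedness are not given in the sources used here.

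Groups came from the sample titles. Counts were analysed in R 4.3.3 with edgeR 4.0.16: filterByExpr (minimum count 10, minimum total 15), TMM, and the quasi-likelihood test over 15320 genes with Benjamini-Hochberg adjustment at 0.05. Another 31185 of the 56748 genes had no count. A prior count of 0.125 entered the log2 fold changes, and a standard error is the log2 fold change divided by the square root of F. DESeq2 1.42.0, the exact test, other scalings and filters, a replicate block, removal of a gene-length trend (lowess span 0.3) and each sample left out were alternatives. The procedure was run on simulated data in which all libraries shared a common profile and an even spread, apart from planted changes. Those data held no library far from the rest, so the run does not cover the pattern seen here.

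The members and lists were chosen with earlier results of these data known. The naming rule took from each list the 2 tested genes farthest from 0 and the first marker. It added the 8 genes nearest in profile (log2 CPM, prior count 2). Marker lists are given mainly as sums, and not every gene the rule took from them is named. Other genes were named after their values had been seen, as stated there. Promoter sequences are RefSeq's on GRCm38.p6.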

Additional observations from a re-analysis of the deposited data

How the results depend on the processing

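The median log2 fold change of the 10 genes was between 1.58 and 2.18 under DESeq2, library size without TMM, upper-quartile scaling, both other filters, removal of the gene-length trend and the replicate block, and between 0.22 and 2.77 with single samples left out, lowest without ADC/cmLumiOpto replicate 2. The number of the 10 with both treated samples above both saline samples was 2 after removal of the length trend. With a sample left out, the remaining treated samples were all above the remaining saline samples for between 3 and 10 genes. The 10 came without ADC/cmLumiOpto replicate 1, where it was fixed beforehand, since the treated sample left was already the highest for every gene. Of 120 values for single members under an alternative, 104 moved by less than the standard error taken as the spread between replicates. Without ADC/cmLumiOpto replicate 2, each of the 10 moved by more than its standard error in the fit of all samples. Il1r2 was -0.04 under the replicate block. The count of called genes, 0 in edgeR's quasi-likelihood test, was 1332 with DESeq2 (575 higher, 757 lower), 1170 with the exact test (606 higher, 564 lower), 2259 of 25563 with no filter beyond 1 count, 607 with the replicate block, and between 0 and 218 with a sample left out. It was 218 without saline replicate 1, 10 without saline replicate 2, 5 without ADC/cmLumiOpto replicate 1 and 0 without ADC/cmLumiOpto replicate 2. Of the 159 tested genes in the other lists, 28 were called by DESeq2 (26 higher), 33 by the exact test (32 higher), 82 with no filter, 23 with the replicate block and between 0 and 18 with a sample left out. The cause of these differences was not tested. The replicate number is only a shared number: the deviations of the 2 samples numbered 1 correlated at 0.0985 across genes.

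Among the genes outside the members that the naming rule gave, the log2 fold change changed sign with a sample left out for Adgre1 (-0.22 to 0.72), Asprv1 (-0.37 to 3.44), Cebpe (-0.081 to 3.13), Cstdc4 (-0.85 to 3.55), Epcam (-0.23 to 0.49), Mcpt8 (-0.77 to 0.36), Ncr1 (-0.058 to 3.77) and Stfa3 (-1.04 to 4.17), and Epcam was -0.018 after removal of the length trend. List genes outside that rule also changed sign, among them 7 of the 14 granule proteins without ADC/cmLumiOpto replicate 2. With 2 samples per group and 1 of them far from the rest, the values describe these libraries. Depth limits Gfi1, Cxcr1 and the sparse marker genes, which have samples at or near the floor of 3 counts.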
